A study of Homo sapiens with 21 samples.

Results

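SWI/SNF enzymes of the BAF and PBAF classes use ATP to slide or evict nucleosomes. The data on them examined here are RNA-seq counts for 10 of their subunit genes in BT-549 cells, an established triple-negative breast cancer (TNBC) line. The 10 genes were chosen as the main BAF and PBAF subunits by symbol, and all 10 were found by their Ensembl identifiers among the 42339 genes of the count table. They are the ATPases SMARCA2 and SMARCA4, the core subunits SMARCC1, SMARCC2 and SMARCB1, the BAF subunits ARID1A and ARID1B, and the PBAF subunits ARID2, PBRM1 and BRD7. All 10 passed the low-count filter in each of 4 comparisons.

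The 21 libraries came from 7 groups of 3 cultures, all of the BT-549 line. 2D cells were wild-type monolayers grown in RPMI1640 with serum. 3D cells were wild-type mammospheres at passage 6, grown in MammoCult medium on ultra-low attachment plates, so growth form, medium and passage cannot be told apart in 3D vs. 2D cells. A further group of 3D cells received 0.75 μM GO-203, an inhibitor of MUC1-C, the oncogenic subunit of the MUC1 protein. The tet-MUC1shRNA mammospheres (passage 6) and tet-MYCshRNA mammospheres (passage 8) carried 1 shRNA each in the pLKO-tet-puro vector, were selected in puromycin, and received either 0.1% DMSO as vehicle or 500 ng/ml doxycycline (DOX), which switches the shRNA on. No library of a control shRNA with DOX was analysed here, so the shRNA and DOX itself cannot be told apart, and each shRNA line differs from the others in shRNA, passage for tet-MYCshRNA, and culture. The study asked how MUC1-C acts in 3D cells, and its introduction names E2F1 as the partner through which MUC1-C activates BAF and PBAF.

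As background, BAF and PBAF share a core and an ATPase, either SMARCA4 (BRG1) or SMARCA2 (BRM), which exclude each other in a complex. ARID1A or ARID1B marks BAF, while ARID2, PBRM1 and BRD7 mark PBAF, whose PBRM1 carries a row of bromodomains that read acetylated histones. Many cancers carry mutations in these genes, and cells that lose an ATPase or ARID paralog often come to rely on the other.

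Total counts per library ranged from 38026597 to 99751717. The targeted genes moved as labelled: MUC1 was at 101, 82.4 and 85.3 CPM with vehicle and 20.2, 21.6 and 23.1 CPM with DOX in tet-MUC1shRNA mammospheres, and MYC was at 446, 425 and 382 CPM with vehicle and 239, 282 and 304 CPM with DOX in tet-MYCshRNA mammospheres. CPM, counts normalized to library size, were scaled by TMM factors over the 21 libraries. The mesenchymal marker VIM was at 1067 to 2507 CPM, EPCAM, PGR, CD3E and CDH5 were at most at 0.122, 0.0706, 0.0646 and 0.104 CPM, and PTPRC, a leukocyte gene, at most at 1.49 CPM. Other mesenchymal genes differed between groups in both directions. In 2D and 3D cells the mean levels were 451 and 50.2 CPM for CDH2, 460 and 6590 CPM for FN1, and 95.7 and 202.8 CPM for ZEB1. In tet-MUC1shRNA mammospheres, from vehicle to DOX, they were 11.8 and 75.1 CPM for CDH2, 10223 and 7246 CPM for FN1, and 320 and 121 CPM for ZEB1, and the epithelial keratin KRT8 was at 0.0414 and 1.36 CPM and KRT18 at 0.0376 and 0.898 CPM. In tet-MYCshRNA mammospheres FN1 was at 5209 CPM with vehicle and 12523 CPM with DOX, and the receptor gene ERBB2 at 20.1 and 36 CPM. Over all libraries ERBB2 ranged from 18.2 to 42.3 CPM, and the receptor gene ESR1 was at most at 1.49 CPM. CDH1, an epithelial gene, had a mean of 1.45 CPM in 2D cells and 0 CPM in 3D cells. PECAM1, an endothelial gene, was at 0.0118 CPM in 2D cells and at 3.02 to 9.4 CPM in the mammosphere groups, and the part of these markers in the results was not tested. A DOX-treated tet-MYCshRNA library, replicate 1, stood apart from the other two for several subunits, and the members' tests that rest on it are given with and without it. Unless DESeq2 or a permutation test is named, each adjusted p below came from edgeR's quasi-likelihood test with Benjamini-Hochberg adjustment over all genes tested, with a threshold of 0.1, and ± after a log2 fold change (log2 change) is its standard error. No label says more than that the cultures were separate samples, so the p-values measure the spread between these samples.

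The start regions of the subunit genes were searched for the letters CACGTG (the canonical E-box, bound by MYC) and for TTTCGCGC, TTTGGCGC and TTTCCCGC (bound by E2F factors), on both strands of RefSeq windows that run from 250 bases before to 50 bases after a start site. Windows were found for 7 of the 10 genes, 13 windows in all. The E-box stood in 1 of the 13 windows (7.7%), at PBRM1, against 7.3% of all 35116 windows. The E2F letters also stood in 1 of the 13 windows (7.7%), at BRD7, against 2.7% of all windows. The sequences below are shown because SMARCA4 and SMARCA2 moved in opposite directions on silencing, and because PBRM1 and BRD7 hold the matches. They are 5′ to 3′ on the gene's strand of GRCh38.p14, with the match in capitals. Apart from the 30 bases at PBRM1, each lies in no annotated exon and stops where its window first meets one, or at the start site. The SMARCA2 bases precede a RefSeq start inside the gene, whose annotation begins farther upstream, at 1980290.
SMARCA4, plus strand, chr19:10960780-10960931: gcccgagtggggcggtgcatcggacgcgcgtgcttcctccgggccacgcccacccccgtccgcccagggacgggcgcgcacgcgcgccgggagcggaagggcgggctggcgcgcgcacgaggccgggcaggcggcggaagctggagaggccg
SMARCA2, plus strand, chr9:2015097-2015185: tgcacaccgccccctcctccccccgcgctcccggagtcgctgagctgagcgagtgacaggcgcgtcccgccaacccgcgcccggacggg
BRD7, minus strand, chr16:50368989-50369238: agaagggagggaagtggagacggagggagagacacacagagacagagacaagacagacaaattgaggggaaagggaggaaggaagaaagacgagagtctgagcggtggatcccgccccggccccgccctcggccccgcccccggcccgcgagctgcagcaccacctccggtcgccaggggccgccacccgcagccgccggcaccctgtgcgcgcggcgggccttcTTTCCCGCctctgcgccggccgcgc
PBRM1, minus strand, chr3:52686026-52686055: ctccgctggcgcCACGTGtgaactgaagcc
The PBRM1 match begins 130 bases before the more upstream of the annotated starts and lies inside the first exon of GNL3, the divergent neighbour, in the GENCODE release 44 annotation. The BRD7 match begins 25 bases before its start. A match is a description of the letters and not a measured binding site.

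Per kilobase of transcript, in 3D cells, the highest level was that of SMARCC1, a scaffold of the core, at 48.9 ± 0.619 RPKM, counts normalized to library size and transcript length (SD, n = 3). ARID1A, the DNA-binding subunit most often mutated in BAF, followed at 40.4 ± 2.53 RPKM and the ATPase SMARCA4 at 31.9 ± 2.27 RPKM. SMARCC2, the paralog of SMARCC1, was at 22.4 ± 0.113 RPKM, PBRM1 at 19.8 ± 1.06, ARID1B at 18 ± 0.856, ARID2 at 13.4 ± 0.371 and BRD7 at 12.7 ± 0.29 RPKM. SMARCB1, a core subunit and tumour suppressor, was at 7.17 ± 0.666 RPKM, and the ATPase SMARCA2 was lowest at 0.182 ± 0.0302 RPKM. These levels used the canonical transcript as length. With the union of exons, PBRM1 came before SMARCC2 and SMARCA4, and ARID1B came after BRD7, while SMARCC1, ARID1A, SMARCB1 and SMARCA2 held their places.

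Across the 7 groups SMARCA2 had the widest range. Its raw counts ran from 36 to 42 in 2D cells and from 42 to 72 in 3D cells, so counting error is a large part of its spread there. In CPM, it was at 0.937, 0.641 and 0.67 in 2D cells, at 0.853, 1.19 and 1.08 in 3D cells and at 1.1, 1.08 and 1.05 in GO-203-treated cells, and these groups overlapped. The tet-MUC1shRNA mammospheres had 1.69, 1.87 and 2.21 CPM with vehicle and 3.17, 3.28 and 2.86 CPM with DOX. The tet-MYCshRNA mammospheres had 16.1, 15.7 and 14.5 CPM with vehicle and 26.9, 25.7 and 30.1 CPM with DOX. From the GO-203 group through tet-MUC1shRNA to tet-MYCshRNA mammospheres, each group's libraries lay above all libraries of the group before it, and the mean of the highest group was 36.8 times that of the lowest. The difference between the vehicle-treated lines was thus larger than either DOX effect on SMARCA2.

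The other 9 genes ranged less widely, with 1.41-fold for ARID1A to 2.59-fold for PBRM1 between their highest and lowest group means. SMARCA4 had 226 ± 21.1 CPM in vehicle-treated tet-MYCshRNA mammospheres and 118 ± 2.4 CPM in DOX-treated tet-MUC1shRNA mammospheres (SD, n = 3). SMARCC1, SMARCB1 and BRD7 were also highest in the vehicle-treated tet-MYCshRNA line, where the SMARCC1 and SMARCB1 values overlapped those of 2D cells. ARID2 and PBRM1 were highest in 2D cells, above every mammosphere library. ARID1A, ARID1B, SMARCC2 and SMARCA2 were highest in DOX-treated tet-MYCshRNA mammospheres, where the ARID1A values overlapped those of 2D cells and the ARID1B values those of DOX-treated tet-MUC1shRNA mammospheres. The lowest means of SMARCA4, SMARCC2, SMARCB1, ARID2 and PBRM1 were in DOX-treated tet-MUC1shRNA mammospheres. In neighbouring positions of that order, the SMARCA4, SMARCB1 and ARID2 values overlapped the next group, and those of SMARCC2 and PBRM1 did not.

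**Figure D1:**
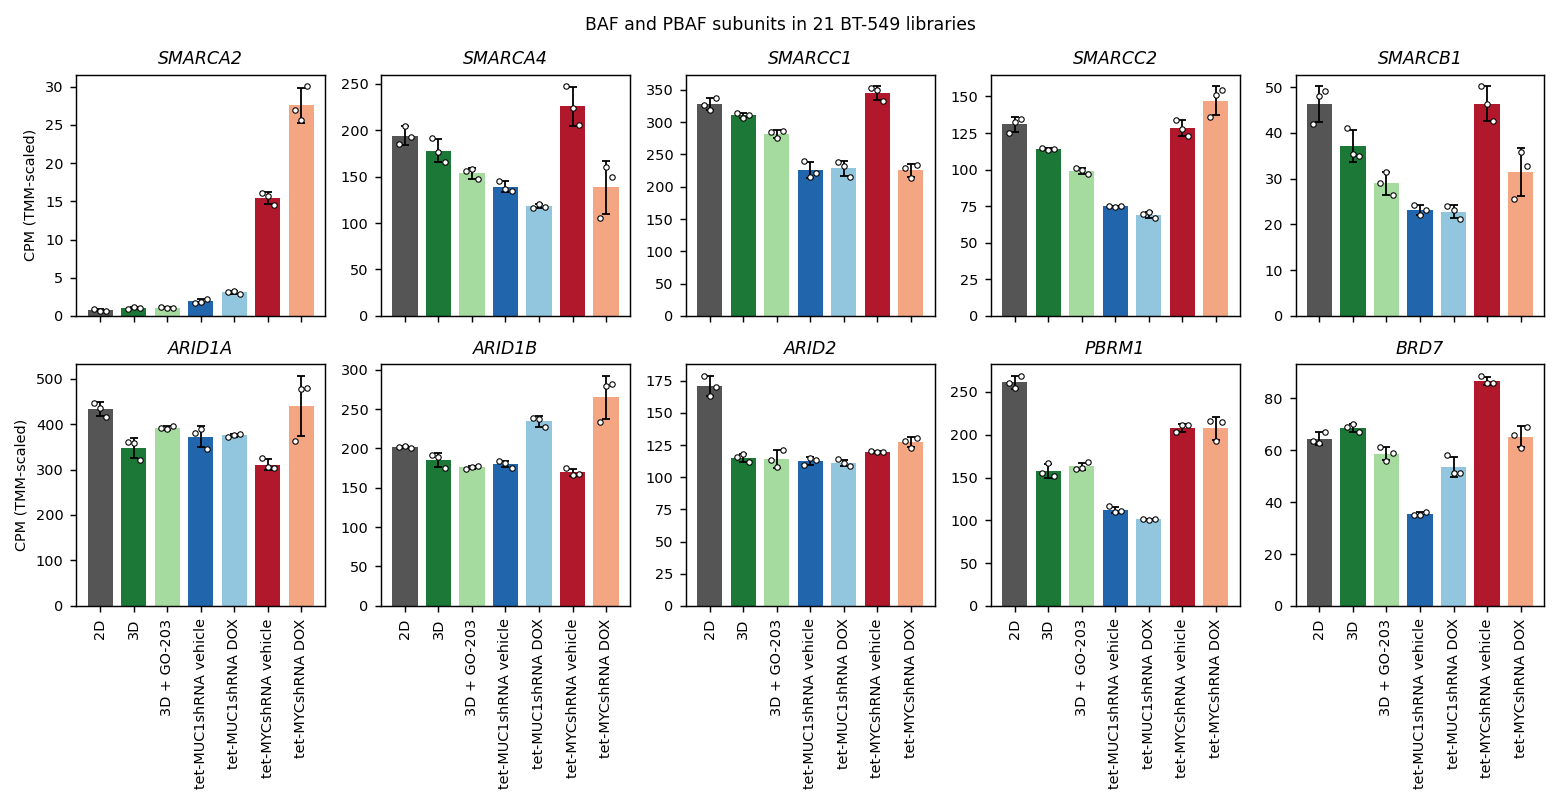
TMM-scaled CPM (linear axes from 0) of the 10 subunits in the 7 groups, with bars at the mean, error bars of 1 SD and points for the 3 libraries. SMARCA2 rises to 27.6 CPM in DOX-treated tet-MYCshRNA mammospheres from 0.749 CPM in 2D cells, and PBRM1 and ARID2 are highest in 2D cells.

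In 3D vs. 2D cells, the PBAF subunits PBRM1 and ARID2 were downregulated, and so were ARID1A, SMARCB1 and SMARCC2. BRD7 was upregulated by a small margin, and SMARCA2, SMARCA4, SMARCC1 and ARID1B did not pass the test. That is 1 of 10 genes up and 5 down, against 32% of all 19190 genes tested that were up and 31.7% that were down. None of the 10 passed a log2 fold change of 1.5 in size, which 16.2% of all genes did. The median log2 fold change of the 10 was -0.11, against -0.01 for all genes.

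PBRM1, the bromodomain subunit of PBAF on chromosome 3 (52545352 to 52685917), was at 260, 254 and 269 CPM in 2D cells and 155, 167 and 151 CPM in 3D cells. Its groups lay far apart, with a log2 change of -0.67 ± 0.06 (adjusted p = 3.7e-08). ARID2, the ARID subunit of PBAF on chromosome 12 (45729706 to 45908040), was at 179, 163 and 170 CPM in 2D cells and 116, 118 and 112 CPM in 3D cells. No library of ARID2 overlapped between the groups, with a log2 change of -0.51 ± 0.06 (adjusted p = 1.3e-06). In bulk RNA, fewer cells that express a gene and less RNA per cell cannot be told apart. BRD7, the third PBAF subunit (chromosome 16, 50313487 to 50368988), did not fall with them, at 63.5, 62.9 and 67.2 CPM in 2D cells and 68.9, 70.1 and 67 CPM in 3D cells. These values overlapped slightly, although not when scaled within the 6 libraries of the comparison, where its log2 change was 0.14 ± 0.06 (adjusted p = 0.0427).

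ARID1A (chromosome 1, 26693236 to 26782104) was at 447, 435 and 416 CPM in 2D cells and 361, 359 and 322 CPM in 3D cells, with no overlap and a log2 change of -0.26 ± 0.06 (adjusted p = 0.0011). Its paralog ARID1B (chromosome 6, 156776020 to 157210779) had a log2 change of -0.07 ± 0.06 (adjusted p = 0.323). SMARCB1 (chromosome 22, 23786931 to 23838009) had a log2 change of -0.26 ± 0.08 (adjusted p = 0.00741), although its groups overlapped when scaled within the comparison. The value of SMARCC2 (chromosome 12, 56162359 to 56189567) was -0.14 ± 0.05 (adjusted p = 0.0331). That of SMARCC1 (chromosome 3, 47585269 to 47782106) was -0.02 ± 0.05 (adjusted p = 0.732), that of SMARCA4 (chromosome 19, 10960932 to 11079426) was -0.07 ± 0.06 (adjusted p = 0.363), and that of SMARCA2 (chromosome 9, 1980290 to 2193624) was 0.54 ± 0.29 (adjusted p = 0.123). The SMARCC2 call was lost without 2D replicate 2 or 3, or 3D replicate 1 or 2, and with no filter beyond 1 count (-0.14, adjusted p = 0.101), and the BRD7 call without 2D replicate 2 and with library size alone (0.08, adjusted p = 0.227). SMARCA2 passed in a single fit of all 21 libraries (0.56, adjusted p = 0.00831), without 2D replicate 1 (0.74, adjusted p = 0.066) and without 3D replicate 1 (0.69, adjusted p = 0.0774), and ranged from 0.45 to 0.74 on leaving out 1 library.

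The vehicle-treated mammospheres of the shRNA lines were also set against the same 2D cells, so the values below share their controls. In tet-MUC1shRNA mammospheres 1 of the 10 was up and 9 down, beside 36.1% and 37.8% of all 19018 genes tested, and in tet-MYCshRNA mammospheres 4 were up and 4 down, beside 33.8% and 32.4% of all 19948. PBRM1 had log2 values of -0.67 in 3D cells, -1.18 in tet-MUC1shRNA and -0.30 in tet-MYCshRNA mammospheres. ARID2 had -0.51, -0.56 and -0.49, and ARID1A had -0.26, -0.18 and -0.45, in the same order. All of these values for PBRM1, ARID2 and ARID1A passed the threshold. SMARCC2 had -0.14, -0.76 and -0.0066, and SMARCB1 had -0.26, -0.96 and 0.0239, and neither passed in tet-MYCshRNA mammospheres (adjusted p = 0.921 and 0.794). SMARCA2 had 0.54, 1.41 and 4.41, SMARCC1 had -0.02, -0.50 and 0.097, and ARID1B had -0.07, -0.12 and -0.23, and these 3 genes passed in both shRNA lines but not in 3D cells. BRD7 instead had 0.14 in 3D cells, -0.82 in tet-MUC1shRNA and 0.45 in tet-MYCshRNA mammospheres, each past the threshold, so its direction depended on which mammospheres were compared. SMARCA4 had -0.07, -0.44 and 0.24, of which the tet line values were past the threshold.

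On MUC1-C silencing in tet-MUC1shRNA mammospheres, SMARCA2, BRD7 and ARID1B were upregulated, and SMARCA4, PBRM1 and SMARCC2 were downregulated by smaller amounts. SMARCC1, SMARCB1, ARID1A and ARID2 did not pass the test, with log2 fold changes from -0.03 to 0.01. These are 3 genes up and 3 down of 10, against 30.7% and 31.6% of all 19220 genes tested. Again no member passed a log2 fold change of 1.5 in size, which 8.82% of all genes did, and the median of the 10 was -0.01. The falls depended on the scaling. Library size alone moved the median over all genes from 0.02 to 0.19, a shift that all genes share, and 7 of the 10 were then up and 0 down, beside 41.4% and 22.9% of all genes under the same scaling, counts that include this shift. edgeR gave 2 of the 10 down with the stricter count filter, and DESeq2 kept SMARCC2 down at -0.12 (adjusted p = 0.028).

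The rise of SMARCA2, from a mean of 1.92 to 3.11 CPM, had a log2 change of 0.68 ± 0.17 (adjusted p = 0.00236), and its raw counts were 65, 80 and 114 with vehicle and 175, 231 and 127 with DOX. BRD7 was at 35.2, 35.2 and 36.2 CPM with vehicle and 58.1, 51.2 and 51.4 CPM with DOX. Its groups did not overlap, with a log2 change of 0.58 ± 0.06 (adjusted p = 2.6e-08). ARID1B was at 183, 181 and 176 CPM with vehicle and 239, 237 and 227 CPM with DOX, a log2 change of 0.37 ± 0.04 (adjusted p = 1.0e-07). These rises of SMARCA2, BRD7 and ARID1B passed under library size alone as well, at 0.84, 0.75 and 0.54.

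SMARCA4 was at 146, 137 and 135 CPM with vehicle and 116, 121 and 117 CPM with DOX, with no overlap and a log2 change of -0.25 ± 0.05 (adjusted p = 8.8e-05). PBRM1 was at 116, 110 and 111 CPM with vehicle and at 101 CPM in each DOX-treated library, a log2 change of -0.16 ± 0.05 (adjusted p = 0.0042). SMARCC2 was at 75.4, 74.4 and 75.1 CPM with vehicle and 69.5, 71.1 and 66.9 CPM with DOX, a log2 change of -0.12 ± 0.05 (adjusted p = 0.027). With library size alone SMARCA4 stayed negative at -0.08, PBRM1 was at 0.003 and SMARCC2 at 0.04, and none of the 3 passed. The SMARCC2 call was also lost without DOX replicate 1. E2F1, the partner named above, was higher on MUC1-C silencing by 0.32 ± 0.06 (adjusted p = 0.00021), and MYC by 0.25 ± 0.04 (adjusted p = 5.0e-05).

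With GO-203 in 3D cells, the core subunits SMARCB1 and SMARCC2, the ATPase SMARCA4 and BRD7 were downregulated, and ARID1A was upregulated. The changes were small, at most 0.34 in size on the log2 scale. They make 1 gene up and 4 down of 10, against 11.1% and 12.9% of all 18488 genes tested, and 0.757% of all genes passed a log2 fold change of 1.5 in size. The median of the 10 was -0.09, against 0.02 for all genes. The untreated 3D libraries are also those of 3D vs. 2D cells, so opposite changes in these comparisons are not independent.

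SMARCB1 was at 41.2, 35.5 and 34.9 CPM in 3D cells and 29.1, 31.5 and 26.5 CPM with GO-203, a log2 change of -0.34 ± 0.08 (adjusted p = 0.00255). BRD7 was at 61.1, 56 and 59.1 CPM with GO-203, below the 3D cells in each library, with a log2 change of -0.21 ± 0.06 (adjusted p = 0.0159). SMARCA4 was at 191, 177 and 166 CPM without and 156, 158 and 147 CPM with GO-203, a log2 change of -0.20 ± 0.06 (adjusted p = 0.0319). These groups did not overlap, but the SMARCA4 call was lost without 3D replicate 1 or GO-203 replicate 3.

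SMARCC2 had a log2 change of -0.19 ± 0.06 (adjusted p = 0.0239). ARID1A was at 391, 389 and 397 CPM with GO-203 and thus above each library of 3D cells, with a log2 change of 0.19 ± 0.06 (adjusted p = 0.017), a call lost without 3D replicate 3 and in a single fit of all 21 libraries (adjusted p = 0.142). SMARCC1, at -0.12 ± 0.05, missed the threshold (adjusted p = 0.107). It passed with DESeq2 (adjusted p = 0.029), with edgeR on library size alone (adjusted p = 0.0816), in a single edgeR fit of all 21 libraries (adjusted p = 0.0558) and with the replicate block (adjusted p = 0.0856), each of which gave 5 members down with GO-203. SMARCA2, ARID1B, ARID2 and PBRM1 had log2 fold changes from -0.06 to 0.07 and did not pass. E2F1 was lower with GO-203, by a log2 value of -0.28 ± 0.08 (adjusted p = 0.0121), and in 3D vs. 2D cells it had -0.02 ± 0.07 and did not pass (adjusted p = 0.85).

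**Figure D2:**
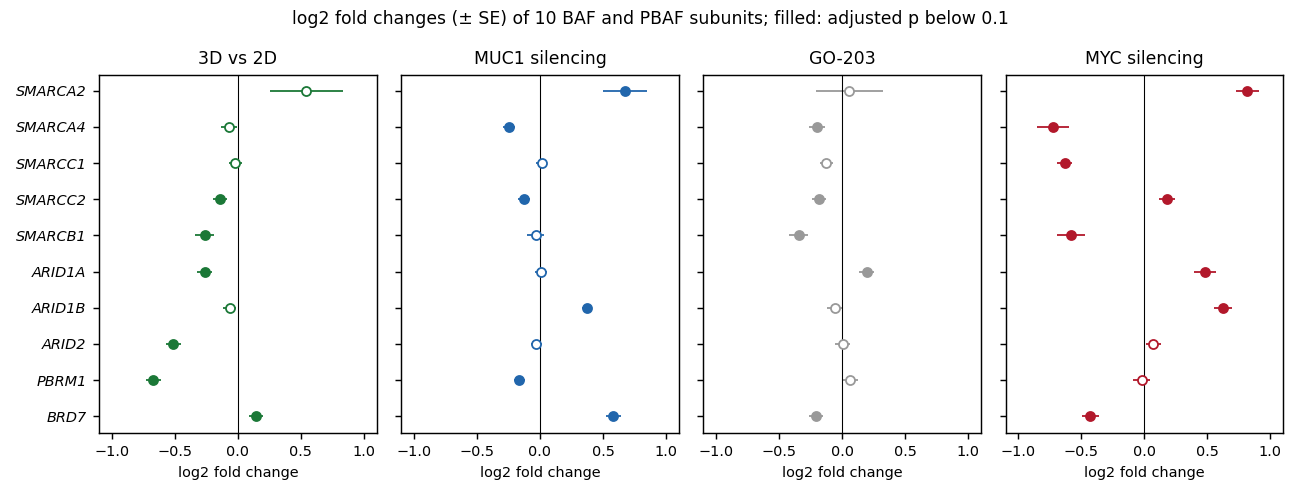
log2 fold changes with standard errors of the 10 subunits in the 4 comparisons, with filled points at an adjusted p below 0.1 and open points otherwise. PBRM1 and ARID2 lie lowest in 3D vs. 2D cells at -0.67 and -0.51, and SMARCA2 lies highest on MYC silencing at 0.82.

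On MYC silencing, 8 of the 10 genes changed. SMARCA2, ARID1B, ARID1A and SMARCC2 were upregulated, and SMARCA4, SMARCC1, SMARCB1 and BRD7 were downregulated, while ARID2 and PBRM1 did not pass. These 4 up and 4 down compare with 30.3% and 28.1% of all 19951 genes tested. No member passed a log2 fold change of 1.5 in size, against 10.5% of all genes, and the median of the 10 was 0.03.

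SMARCA4 was at 247, 224 and 205 CPM with vehicle and 106, 160 and 150 CPM with DOX. DOX replicate 1 was the lowest, but all DOX libraries lay below all vehicle libraries, with a log2 change of -0.72 ± 0.12 (adjusted p = 0.000638), or -0.58 without that replicate. SMARCA2 moved the other way, at 0.82 ± 0.09 (adjusted p = 3.1e-05), with 1360 to 1864 raw counts on DOX. The SMARCC1 values of 352, 350 and 333 CPM with vehicle and 229, 213 and 234 CPM with DOX did not overlap, with a log2 change of -0.63 ± 0.06 (adjusted p = 1.0e-05). SMARCC2, its paralog, was at 134, 128 and 123 CPM with vehicle and 136, 151 and 154 CPM with DOX, a log2 change of 0.18 ± 0.06 (adjusted p = 0.0299) that missed the threshold without vehicle replicate 2 or 3 or without DOX replicate 3.

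SMARCB1 was at 50.3, 46.3 and 42.6 CPM with vehicle and 25.6, 35.8 and 32.7 CPM with DOX, a log2 change of -0.58 ± 0.11 (adjusted p = 0.00135), or -0.47 without DOX replicate 1. BRD7 was at 88.7, 86.2 and 85.9 CPM with vehicle and 66, 61 and 68.8 CPM with DOX, a log2 change of -0.43 ± 0.07 (adjusted p = 0.00036). Both thus fell with no overlap between the groups.

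ARID1A was at 326, 305 and 302 CPM with vehicle and 363, 476 and 480 CPM with DOX. DOX replicate 1 again lay nearest to the vehicle libraries, with a log2 change of 0.48 ± 0.09 (adjusted p = 0.00106), or 0.59 without it. ARID1B was at 175, 166 and 167 CPM with vehicle and 233, 279 and 282 CPM with DOX, a log2 change of 0.63 ± 0.07 (adjusted p = 3.0e-05). In the same cells E2F1 had a log2 change of -0.53 ± 0.12 (adjusted p = 0.00362), with 20.4 CPM in DOX replicate 1 and 28.8 and 28.5 CPM in the other DOX libraries, while MUC1 was higher by 1.25 ± 0.11 (adjusted p = 5.1e-06). Without DOX replicate 1, all 8 calls held, with log2 values of 0.81 for SMARCA2, -0.66 for SMARCC1, 0.22 for SMARCC2, 0.69 for ARID1B and -0.46 for BRD7.

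The effects of MUC1-C and MYC silencing were compared directly by an interaction over their 12 libraries, which share none. Their difference passed the threshold for 7 of the 10 genes, against 52.9% of all 21585 genes tested. BRD7 differed most, rising on MUC1-C silencing and falling on MYC silencing, by 0.996 ± 0.09 (adjusted p = 4.6e-08). SMARCC1 (0.63 ± 0.08), SMARCB1 (0.53 ± 0.14) and SMARCA4 (0.46 ± 0.14) were lower on MYC silencing relative to MUC1-C silencing, with adjusted p = 1.9e-06, 0.00372 and 0.0125. ARID1A (-0.49 ± 0.11), SMARCC2 (-0.32 ± 0.08) and ARID1B (-0.27 ± 0.08) were lower on MUC1-C silencing relative to MYC silencing, with adjusted p = 0.00107, 0.00186 and 0.0108. For SMARCA2, which rose in both, the difference was -0.15 ± 0.16 (adjusted p = 0.454), and ARID2 and PBRM1 did not pass. PBRM1 passed in a single fit of all 21 libraries (-0.19, adjusted p = 0.0596) and without DOX replicate 2 of tet-MYCshRNA (-0.22, adjusted p = 0.0202). Without DOX replicate 1 of tet-MYCshRNA, the same count of 7 genes passed, and SMARCA4 was at 0.31, SMARCB1 at 0.42, ARID1A at -0.60, SMARCC1 at 0.65, SMARCC2 at -0.37, ARID1B at -0.34 and BRD7 at 1.01. With library size alone, SMARCC2 and ARID1B missed the threshold (-0.11 and -0.06), under a scaling that moved the median difference over all genes from 0.05 to 0.25.

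MUC1-C silencing and GO-203, which target the same protein by different means and in different lines, were compared in the same way. The difference passed for 6 of 10 genes, against 44.9% of all 20829 genes. BRD7 had a difference of 0.79 ± 0.08 (adjusted p = 1.7e-08), rising on silencing and falling with GO-203, and ARID1B one of 0.43 ± 0.07 (adjusted p = 6.4e-06). SMARCA2 (0.63 ± 0.29, adjusted p = 0.0914) and SMARCB1 (0.31 ± 0.10, adjusted p = 0.0185) were also higher on silencing relative to GO-203. PBRM1 (-0.23 ± 0.07, adjusted p = 0.0134) and ARID1A (-0.19 ± 0.07, adjusted p = 0.0452) were lower, and with library size alone these missed the threshold (-0.07 and -0.03), while SMARCC1 (0.295, adjusted p = 0.000153) and SMARCC2 (0.22, adjusted p = 0.0096) passed it, under a scaling that moved the median difference over all genes from -0.0033 to 0.15. The ARID1A difference also missed it in a single fit of all 21 libraries (adjusted p = 0.181). The SMARCA2 difference missed it in the fits without 3D replicate 2 or 3, any GO-203 library, tet-MUC1shRNA vehicle replicate 1 or 2, or DOX replicate 1 or 2, at 0.526 to 0.653, and the ARID1A difference without 3D replicate 3, vehicle replicate 2 or DOX replicate 1. SMARCA4, which was downregulated by both, had a difference of -0.05 ± 0.08 (adjusted p = 0.681).

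Paralogs were then set against each other within each library, as the log2 of the ratio of their raw counts, which needs no scaling between libraries. SMARCA2 and SMARCA4, like ARID1A and ARID1B, are alternative subunits, whereas SMARCC1 and SMARCC2 can sit together in a complex. With 3 libraries a group, an exact two-sided permutation test cannot go below p = 0.1, and that value was reached in 11 of the 12 tests (0.109 after Benjamini-Hochberg adjustment over the 12).

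The SMARCA2 to SMARCA4 ratio was -8.04 ± 0.37 in 2D cells, -7.43 ± 0.33 in 3D cells and -7.16 ± 0.03 with GO-203 (mean ± SD, n = 3). It was -6.19 ± 0.25 with vehicle and -5.25 ± 0.09 with DOX in tet-MUC1shRNA mammospheres, a 1.92-fold rise without overlap (exact permutation p = 0.1). In tet-MYCshRNA mammospheres it was -3.86 ± 0.07 with vehicle and -2.31 ± 0.33 with DOX, a 2.94-fold rise without overlap (exact permutation p = 0.1), or a log2 difference of 1.56 that was 1.39 without DOX replicate 1. Only in 3D vs. 2D cells did the groups overlap (exact permutation p = 0.2). With GO-203 the groups were separate by a narrow margin, at -7.21 in the highest 3D library and -7.20 in the lowest GO-203 library. That log2 difference of 0.27 ranged from 0.08 to 0.38 on leaving out 1 library. In RPKM, SMARCA2 made up 0.376% ± 0.0997 of the sum of both ATPases in 2D cells, 0.571% ± 0.122 in 3D cells and 0.676% ± 0.0156 with GO-203 (SD, n = 3). The share was 1.33% ± 0.226 with vehicle and 2.49% ± 0.148 with DOX in tet-MUC1shRNA mammospheres, and 6.25% ± 0.268 with vehicle and 16.5% ± 3.17 with DOX in tet-MYCshRNA mammospheres.

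The ARID1B to ARID1A ratio was -1.1 ± 0.05 in 2D and -0.90 ± 0.02 in 3D cells, and -1.16 ± 0.02 with GO-203. The rise in 3D cells and the fall with GO-203 rest on the same 3D libraries and are not independent. Both left no overlap (exact permutation p = 0.1 each). It rose from -1.05 ± 0.06 to -0.68 ± 0.05 on MUC1-C silencing and went from -0.88 ± 0.02 to -0.72 ± 0.08 on MYC silencing, the latter with ARID1A and ARID1B both up and a log2 difference of 0.15, or 0.11 without DOX replicate 1. The SMARCC2 to SMARCC1 ratio moved most on MYC silencing, from -1.43 ± 0.03 to -0.62 ± 0.13, a 1.76-fold rise (exact permutation p = 0.1), or a log2 difference of 0.81 that was 0.88 without DOX replicate 1. In the other comparisons it was lower by 0.12 in 3D cells, by 0.14 on MUC1-C silencing and by 0.06 with GO-203.

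**Figure D3:**
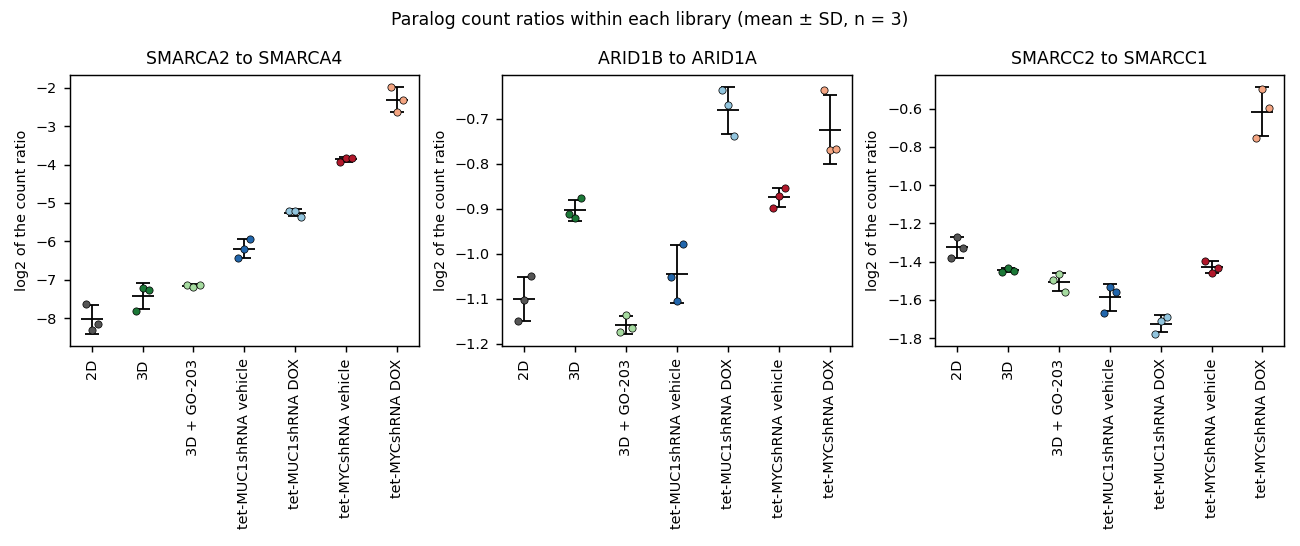
log2 of the count ratio of 3 paralog pairs in each library, with the mean and SD of the 3 libraries of a group. The SMARCA2 to SMARCA4 ratio runs from -8.04 in 2D cells to -2.31 in DOX-treated tet-MYCshRNA mammospheres, and the SMARCC2 to SMARCC1 ratio is highest in that group, at -0.62.

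The libraries were stranded, but the strand setting of the counting is not given in the sources used here, which bears on genes that share exon bases with others. For BRD7, 41.9% of exon bases overlap genes on the opposite strand, mainly ADCY7, which had at most 13 counts in a library, and 7 pseudogenes carry its name. For SMARCB1 the share is 17.7%, with DERL3 at most at 53 counts. For SMARCC2 it is 7.83%, with MYL6, an abundant myosin light chain gene at 6752 to 18007 counts. The other 7 genes share at most 2.40% with an opposite strand gene. How reads of such bases were assigned was not tested.

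Among 19 other SWI/SNF subunits, 18 were tested and ACTL6B, the neuronal actin-like subunit, was not. In 3D vs. 2D cells 8 were up and 7 down, beside the 32% and 31.7% of all genes given above, with a median log2 fold change of 0.03. The largest changes among those with separate groups were in SMARCD3, a core paralog (-1.63 ± 0.11), DPF1, a BAF subunit (1.53 ± 0.13), and SMARCD2, the paralog of SMARCD3 (1.15 ± 0.07), with adjusted p = 1.6e-09, 2.4e-08 and 3.9e-10. SMARCD3 shares 28.4% of its exon bases with opposite strand genes, SS18L1 17.8%, DPF2 13.5%, PHF10 10.5% and BCL7A 9.78%. SMARCE1, counted below as up with GO-203, shares 18.9% with a same-strand gene, and 7 pseudogenes carry its name. On MUC1-C silencing 5 were up and 8 down (median -0.09; all genes 30.7% and 31.6%), led by BCL7A, a core-associated subunit (-1.28 ± 0.09), SMARCD3 (-0.84 ± 0.14) and the PBAF subunit PHF10 (-0.65 ± 0.05), with adjusted p = 1.2e-10, 4.3e-05 and 1.8e-09. With GO-203, 1 was up and 3 down (median -0.06; all genes 11.1% and 12.9%), including BCL7A at -0.70 ± 0.11 (adjusted p = 8.4e-05), DPF1 at -0.27 ± 0.11 (adjusted p = 0.0878) and SMARCD1 at -0.25 ± 0.06 (adjusted p = 0.0054). On MYC silencing 4 were up and 9 down (median -0.29; all genes 30.3% and 28.1%), with BCL7A at -1.46 ± 0.13, BICRA, a non-canonical BAF subunit, at 0.82 ± 0.15 and DPF3 at 0.79 ± 0.07 (adjusted p = 4.9e-06, 0.000813 and 8.1e-06). BICRA was at 22.1 CPM in DOX replicate 1 and at 35.5 and 30.4 CPM in the other DOX libraries.

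**Figure D4:**
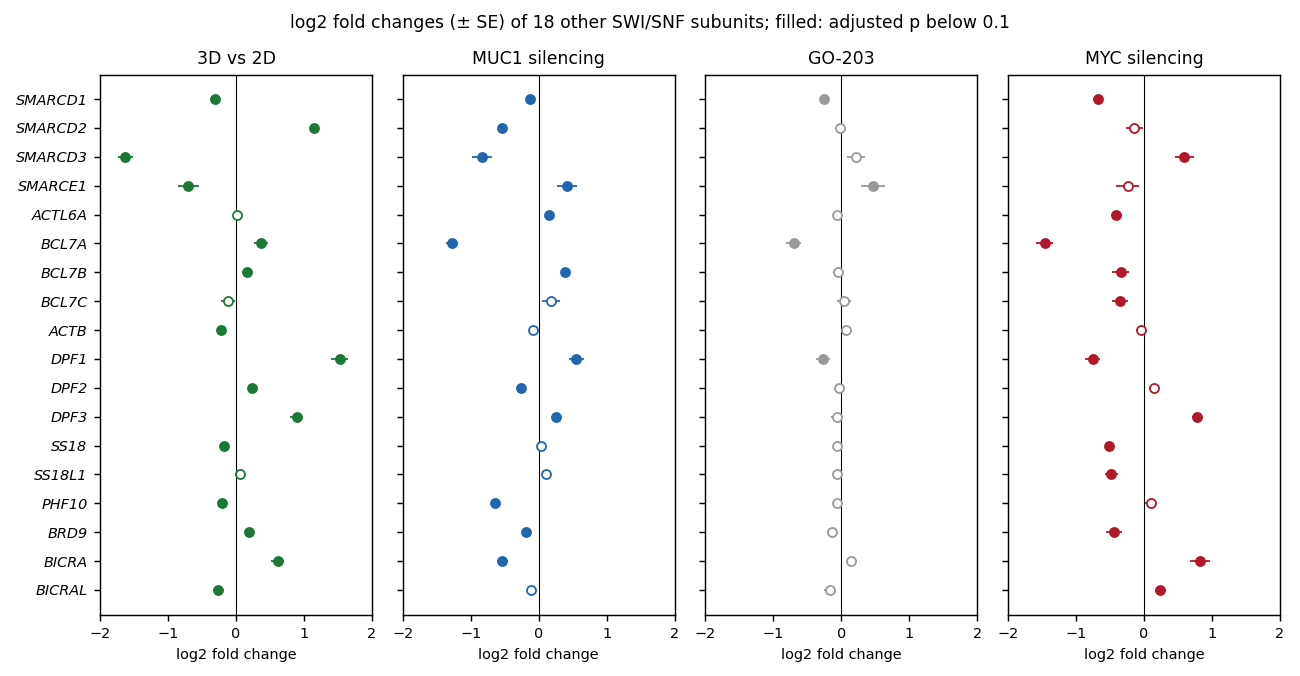
log2 fold changes with standard errors of 18 other SWI/SNF subunits in the 4 comparisons, with filled points at an adjusted p below 0.1. BCL7A lies at -1.28 on MUC1-C silencing, -0.70 with GO-203 and -1.46 on MYC silencing, and SMARCD3 lies at -1.63 in 3D vs. 2D cells.

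Among 13 ATPases of other remodelling families, 3 were up and 5 down in 3D vs. 2D cells (all genes 32% and 31.7%), and 5 up and 4 down on MUC1-C silencing (all genes 30.7% and 31.6%). With GO-203, 2 were up and 1 down (all genes 11.1% and 12.9%), and on MYC silencing 5 were up and 5 down (all genes 30.3% and 28.1%). Their median log2 fold changes were -0.09, -0.02, -0.03 and -0.05. SRCAP, among those up on MUC1-C silencing, shares 73.1% of its exon bases with same-strand genes. CHD4, among those down in 3D vs. 2D cells and on MYC silencing, shares 46.9%. How reads of these bases were assigned was not tested. SMARCA1, an ISWI-class ATPase, had a log2 change of -0.86 ± 0.06 on MUC1-C silencing and 1.16 ± 0.06 on MYC silencing (adjusted p = 6.3e-11 and 1.7e-07), against -0.25 and -0.72 for SMARCA4. In 3D vs. 2D cells CHD3 was at -1.02 ± 0.08, CHD6 at -0.79 ± 0.06 and CHD9 at 0.69 ± 0.06 (adjusted p = 1.5e-08, 9.3e-09 and 5.5e-08). On MUC1-C silencing EP400 was at 0.49 ± 0.06 and CHD3 at -0.44 ± 0.06 (adjusted p = 8.9e-07 and 8.6e-07). With GO-203, SMARCA1 was at -0.23 ± 0.06, CHD2 at 0.22 ± 0.06 and CHD9 at 0.20 ± 0.06 (adjusted p = 0.0135, 0.0212 and 0.0201). On MYC silencing CHD9 was at 0.88 ± 0.07 and CHD2 at 0.68 ± 0.06 (adjusted p = 2.3e-06 and 9.7e-06).

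As a description over the 21 libraries, in which those of a group share a condition, the log2 CPM of SMARCA4 was most like that of the histone genes H2AC8 (r = 0.979), H2AC16 (r = 0.964) and H2BC8 (r = 0.956) among 11183 genes at 1 CPM or more in every library. That of SMARCA2 was most like ERO1B (r = 0.955), MCC (r = 0.954) and SORT1 (r = 0.951). Among the members themselves, the highest correlations were between SMARCC2 and PBRM1 (r = 0.922) and between SMARCA4 and SMARCB1 (r = 0.919), and the lowest was between SMARCC1 and ARID1B (r = -0.573).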

How the data were processed

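RNA of 21 cultures had been made into stranded mRNA libraries. The authors aligned reads to GRCh38 with STAR (2.7.3a in the processing notes, which also list CASAVA 1.8.2 and DESeq2) and deposited raw counts per gene from featureCounts. Neither the annotation release nor the strand setting nor the treatment of reads with several positions is given in the sources used here. Blank cells were read as 0. Each 2D and 3D library had 6498 of them, each GO-203 library 7587, each tet-MUC1shRNA library 4952 and each tet-MYCshRNA library 5761. The part of these blocks in the GO-203 comparison and in the interactions was not tested. Library totals were 38026597 to 99751717 (median 53548353), so counting error was small for all members but SMARCA2, whose lowest count was 36. The 10 members, the 19 other subunits and the 13 other ATPases, as well as the tests, were chosen with earlier results of these data known.

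In R 4.3.3, each pair of groups was fitted on its own 6 libraries with edgeR 4.0.16 (filterByExpr, TMM factors, quasi-likelihood test, Benjamini-Hochberg over all genes tested). Genes passed at an adjusted p below 0.1. Differences between effects were tested as interactions over 12 libraries. CPM were scaled by TMM factors over 21 libraries, RPKM used canonical transcripts of GENCODE release 44, and correlations used log2 CPM with a prior count of 2. Named genes were all members and, for each other list and comparison, up to 3 with the largest change among those that passed and whose groups did not overlap. Promoter windows were from RefSeq. Ratios of counts were compared by an exact two-sided permutation test in scipy 1.17.1. The edgeR fits and the ratio step were tested on simulated data, the fits with a single dispersion for all genes. The alternatives were DESeq2 1.42.0, RLE factors, library size alone, no filter beyond 1 count, a minimum of 10 counts per library, a single fit of the 21 libraries, the replicate block, an adjusted p below 0.05, an added fold change above 1.5, other mammospheres in place of 3D cells, leaving out each library, and, chosen after seeing the data, the union of exons as length. The 21 replicate pairs differed by more than sampling noise (chi-square per degree of freedom 4.36 to 52.8).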

Additional observations from a re-analysis of the deposited data

Results flagged for a closer look

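The effects of separate treatments differed past the threshold of the interaction tests in 13 cases, for 7 of 10 members between MUC1-C and MYC silencing and 6 of 10 between MUC1-C silencing and GO-203, beside 52.9% and 44.9% of all genes. Between MUC1-C silencing and MYC silencing, the log2 effects differed by 0.996 for BRD7, 0.63 for SMARCC1, 0.53 for SMARCB1, 0.46 for SMARCA4, -0.27 for ARID1B, -0.32 for SMARCC2 and -0.49 for ARID1A. Between MUC1-C silencing and GO-203, they differed by 0.79 for BRD7, 0.63 for SMARCA2, 0.43 for ARID1B, 0.31 for SMARCB1, -0.19 for ARID1A and -0.23 for PBRM1. BRD7 had effects of opposite sign that passed their own tests in both pairs of contrasts, and SMARCC2 had them between MUC1-C silencing (-0.12) and MYC silencing (0.18). With library size alone, SMARCC2 was at 0.04 on MUC1-C silencing (adjusted p = 0.46) and its difference missed the threshold (-0.11, adjusted p = 0.204). Its MYC silencing call was lost with the replicate block (adjusted p = 0.104) and on leaving out certain single libraries. Single outlying libraries were not tested for, with 3 libraries in each group. The replicate pairs with DOX replicate 1 of tet-MYCshRNA had the highest chi-square per degree of freedom, at 52.8 and 36.3.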

How the results depend on the processing

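Counts of members past the threshold moved with a few settings. An added fold change above 1.5 left 0 up and 1 down in 3D vs. 2D cells (all genes 17.9% and 21.1%), 1 up and 0 down on MUC1-C silencing (17.6% and 14.6%), 0 up and 0 down with GO-203 (3.61% and 2.02%), and 2 up and 2 down on MYC silencing (20.6% and 17.1%). Library size alone gave 0 up and 7 down in 3D vs. 2D cells (all genes 29.2% and 34.7%), where SMARCA4 (-0.13, adjusted p = 0.0885) and ARID1B (-0.13, adjusted p = 0.0656) then passed, and 7 up and 0 down on MUC1-C silencing (all genes 41.4% and 22.9%). All 21 libraries in a single fit gave 2 up in 3D vs. 2D cells (all genes 29.4%) and 0 up with GO-203 (6.9%). No filter beyond 1 count left 3 members differing between MUC1-C silencing and GO-203 (all genes 21.5%). Vehicle-treated tet-MUC1shRNA mammospheres gave 9 down against 2D cells (all genes 37.8%), and tet-MYCshRNA mammospheres 4 up (33.8%). Leaving out each library gave 0 to 2 up and 4 to 5 down in 3D vs. 2D cells, 3 up and 2 to 3 down on MUC1-C silencing, 0 to 1 up and 3 to 4 down with GO-203, 3 to 4 up and 4 down on MYC silencing, and 7 to 8 and 4 to 7 members in the interactions with MYC silencing and GO-203. The causes were not tested.

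Sign changes against 2D cells were BRD7 to -0.82 (tet-MUC1shRNA) and SMARCA4 to 0.24, SMARCC1 to 0.10 and SMARCB1 to 0.0239 (tet-MYCshRNA). Library size alone, which moved the median over all genes by a similar amount (from 0.02 to 0.19 on MUC1-C silencing, 0.05 to 0.25 and -0.0033 to 0.15 in the differences), turned SMARCC2 to 0.0414, SMARCB1 to 0.13, ARID2 to 0.14 and PBRM1 to 0.00341 on MUC1-C silencing, and the differences from MYC silencing to 0.0467 (SMARCA2), 0.0909 (ARID2) and 0.0476 (PBRM1) and from GO-203 to 0.11 (SMARCA4) and 0.12 (ARID2). The other sign changes were of values near 0. On MUC1-C silencing, a minimum of 10 counts gave SMARCB1 0.0173 and ARID2 0.0207, and a single fit SMARCC1 -0.0109 and ARID1A -0.0177. With GO-203, ARID2 was -0.000441 with RLE factors, -0.00414 without a filter and -0.0247 in a single fit, and its difference from MUC1-C silencing 0.0151 at a minimum of 10 counts. On MYC silencing PBRM1 was 0.000316 in a single fit. Leaving out each library gave ranges that crossed 0 for SMARCC1 in 3D vs. 2D cells (-0.0333 to 0.00771), SMARCC1 on MUC1-C silencing (-0.0268 to 0.0485), ARID1A on MUC1-C silencing (-0.0406 to 0.0334), SMARCA2 with GO-203 (-0.0633 to 0.161), ARID2 with GO-203 (-0.039 to 0.0441), PBRM1 on MYC silencing (-0.0689 to 0.0339) and ARID2 in the difference from GO-203 (-0.0718 to 0.00555).

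Same-numbered cultures showed no common deviation (mean correlations of -0.02, 0.02, 0.06 and -0.10), so the numbers were not taken to pair the samples. With the replicate block, SMARCC2 on MYC silencing missed the threshold (0.18, adjusted p = 0.104), SMARCC1 with GO-203 passed it (adjusted p = 0.0856), and SMARCA2 and SMARCC1 changed sides in the difference between MUC1-C silencing and GO-203 (adjusted p = 0.105 and 0.0955). It changed no other call of a member.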
